A study of Mus musculus with 7 samples.

Results

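MicroRNA levels were measured in whole kidneys of 4 wild-type male mice from the megabladder mouse line, genotype mgb+/+, aged 3.5 to 4 weeks. They make up 4 of the 7 arrays of the study, which also holds kidneys of mgb-/- mice. Homozygous megabladder mice have a bladder that fails to empty and develop obstructed kidneys, and the mgb+/+ animals are the line's normal kidneys. Total RNA with its small fraction was taken from snap-frozen tissue, 100 ng was labelled with the dye Cy3, and each kidney was read on 1 Agilent mouse microRNA array in a single colour. All spots that the array files mark as tests, not controls, and that carry a mouse microRNA name were used, which gave 611 microRNAs read by 1759 probes. The kidneys are described here on their own, with no comparison of genotypes and so with no test between groups.

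MicroRNAs are short RNAs cut from a hairpin precursor. One strand, or arm, of the hairpin is loaded into an Argonaute protein and pairs with messenger RNAs mainly through its seed, the bases 2 to 8, so microRNAs with the same seed form a family with overlapping targets. The other arm is usually degraded, and older names mark it with a star. In kidney, miR-192, miR-194, miR-204 and the miR-30, miR-10 and miR-200 families are known from tubular epithelium, miR-126 from endothelium, and miR-451 and miR-144 from red blood cells.

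The sequences below are mature strands with large shares of the signal or that separated the mice, in 5′ to 3′ order, with the seed in capitals. They are RefSeq's, from the mouse assembly GRCm38.p6, which held 415 of the 611 names. Those of miR-720, miR-21, miR-451 and miR-126-3p were not among the matches. The 7 members of the let-7 family among the leading 25 microRNAs share 1 seed.
let-7c: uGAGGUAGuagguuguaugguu
let-7b: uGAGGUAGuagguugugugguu
let-7a: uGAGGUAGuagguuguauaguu
let-7f: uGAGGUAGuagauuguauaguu
let-7g: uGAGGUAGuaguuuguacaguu
let-7d: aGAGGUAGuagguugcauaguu
let-7i: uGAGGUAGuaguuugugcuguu
The next lines give strands of other seed groups with large shares: miR-30 members, miR-22, miR-192, miR-26a and 2 members of the miR-200 family.
miR-30a: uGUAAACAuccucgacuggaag
miR-30c: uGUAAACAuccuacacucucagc
miR-30e: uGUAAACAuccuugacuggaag
miR-22: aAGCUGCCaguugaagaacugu
miR-192: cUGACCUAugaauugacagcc
miR-26a: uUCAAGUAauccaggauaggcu
miR-200b: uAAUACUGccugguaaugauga
miR-429: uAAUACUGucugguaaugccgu
The last lines give the miR-29 family and miR-574-5p, which were among those that differed most between the mice.
miR-29a: uAGCACCAucugaaaucgguua
miR-29b: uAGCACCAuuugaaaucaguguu
miR-29c: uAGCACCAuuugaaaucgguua
miR-574-5p: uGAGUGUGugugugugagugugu

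Between 190 and 206 microRNAs were well above background in each kidney, and 179 were so in all 4. A microRNA was counted as detected on an array where, for at least 1 of its probes, at least 0.5 of the unflagged spots were called well above background by the scanner software. The 179 are 29.3% of the 611. A further 52 (8.51%) were detected on 1 to 3 arrays, and 380 (62.2%) on none, so that 231 (37.8%) were detected on at least 1 array. Each array held 12220 spots for mouse microRNAs, of which 3.37% to 3.72% were set aside as outliers, and no spot was saturated. Repeated spots of 1 probe on 1 array varied by a median of 5.64% to 6.27% (coefficient of variation). The level of a microRNA is its background-subtracted signal in scanner units after scaling of the arrays to a common 75th percentile. Different probes of 1 microRNA differed by a median of 2.32-fold in signal, so the order of levels is an order of probe signal and not of molecule number. Closely related strands, such as those of the let-7 family, may also bind each other's probes, which was not tested.

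The 4 kidneys were alike in level order, with Spearman correlations of 0.944 to 0.995 across the 179 microRNAs within pairs of mice, which is a correlation across microRNAs measured on the same probes. Mice 1 and 2 were closest to each other, as were mice 3 and 4. The median absolute log2 difference was 0.11 between mice 1 and 2 and 0.095 between mice 3 and 4, against 0.18 to 0.22 for the other 4 pairs. Values are therefore given for each mouse wherever a result turns on them.

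The signal was concentrated in few microRNAs. The leading 10 held 48.0% ± 1.86 (SD, n = 4) of the summed signal of the 179, the leading 25 held 71.6% ± 1.90, the leading 50 held 88.9% ± 1.13 and the leading 100 held 97.1% ± 0.41. In each mouse, 10 to 12 microRNAs were enough to reach 50% of the signal. By mean level, 22 microRNAs exceeded 1000 units and together held 68.0% of the signal, 57 lay between 100 and 1000 units with 27.2%, and the other 100 held 4.73%. The levels spanned 718-fold, from 8694 units for miR-720 to 12.1 units for miR-191*, with a median of 60.6 units.

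**Figure D1:**
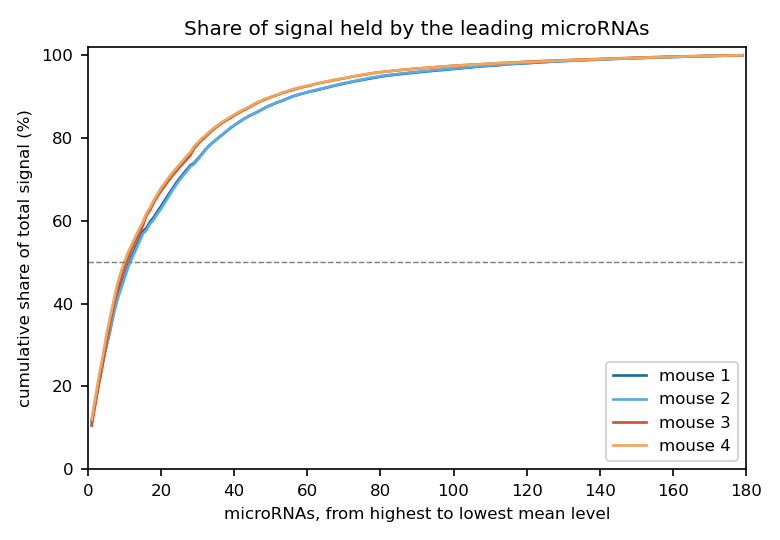
The horizontal axis ranks the 179 microRNAs detected in every kidney from the highest to the lowest mean level, the vertical axis is the cumulative share of the summed signal in percent, each line is 1 mouse, and the dashed line marks 50%. The 4 curves cross 50% after about 10 to 12 microRNAs and are close to flat after the leading 100, which held 97.1%.

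The brightest entry in every kidney was miR-720, at 8178, 7961, 8645 and 9994 units in mice 1 to 4, or 11.2% ± 0.67 (SD, n = 4) of the signal. This sequence was later withdrawn from the miRBase registry as a likely fragment of a transfer RNA, and its part in the totals is therefore also given apart. It was 2.16-fold above the next entry, and its lowest value lay above the highest value of any other microRNA. Its 2 probes differed by 4.72-fold in signal, and mouse 4 was highest on both. With miR-720 left out, the leading 10 held 44.2% and the leading 25 held 69.2% of the rest.

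The let-7 family filled most of the places behind it. let-7c, a strand that restrains growth genes in differentiated tissue, was at 3469, 3854, 4279 and 4493 units in mice 1 to 4. let-7b followed at 3108, 3412, 4216 and 4418 units, and let-7a at 3272, 3566, 3656 and 3791 units. let-7c was above let-7b in all 4 mice, by 1.07-fold on average, though their ranges overlapped, while let-7b and let-7a exchanged places, with let-7a higher in 2 of the 4. Mouse 1 was lowest for each of these 3 strands. let-7f averaged 3250 ± 257 units (SD, n = 4), let-7g 2138 ± 288, let-7d 1474 ± 48.7 and let-7i 958 ± 82.1, so that 7 of the leading 25 belonged to this family.

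Behind and among them stood microRNAs of several cell types. miR-22, a strand found in many tissues and abundant in muscle, was at 2828, 2967, 4004 and 4359 units. miR-21, known from injury, fibrosis and proliferation, was at 2621, 2641, 4158 and 3586 units. Both were higher in mice 3 and 4 than in mice 1 and 2 with no overlap. miR-451, which red blood cells make in large amounts by a Dicer-independent route, was at 2816, 2508, 3098 and 3415 units. miR-126-3p, the endothelial strand, was steadier at 1830, 1960, 1927 and 1945 units.

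The tubular strands miR-30a and miR-192 were also among the leading 13. miR-30a was at 1826, 1992, 2337 and 2130 units. miR-192, which is enriched in the proximal tubule, was at 1434, 1434, 1586 and 1599 units. miR-26a averaged 1575 ± 104 units (SD, n = 4), miR-30c 1437 ± 70.2 and miR-30e 1002 ± 18.3. The remaining places went to miR-29a and miR-29c, described below, and to miR-200b (1132 ± 56.3 units), miR-15a (1093 ± 112), miR-107 (1047 ± 178), miR-24 (1018 ± 34.6), miR-125b-5p (938 ± 55.8) and miR-23b (860 ± 45.1).

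The membership of the leading 25 was nearly the same in every mouse, but the order within it was not. Of the leading 25, 22 were among the leading 25 of every mouse, the exceptions being miR-29a, miR-29c and miR-23b. Of the 24 pairs of neighbours, 6 had the same order in all 4 mice, and 3 did not overlap: miR-720 over let-7c, miR-451 over let-7g by 1.38-fold, and miR-126-3p over miR-26a by 1.22-fold. The ranges of the other 21 pairs overlapped. Among these, let-7c over let-7b, let-7f over miR-451 and miR-125b-5p over miR-23b kept their order in all 4 mice.

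**Figure D2:**
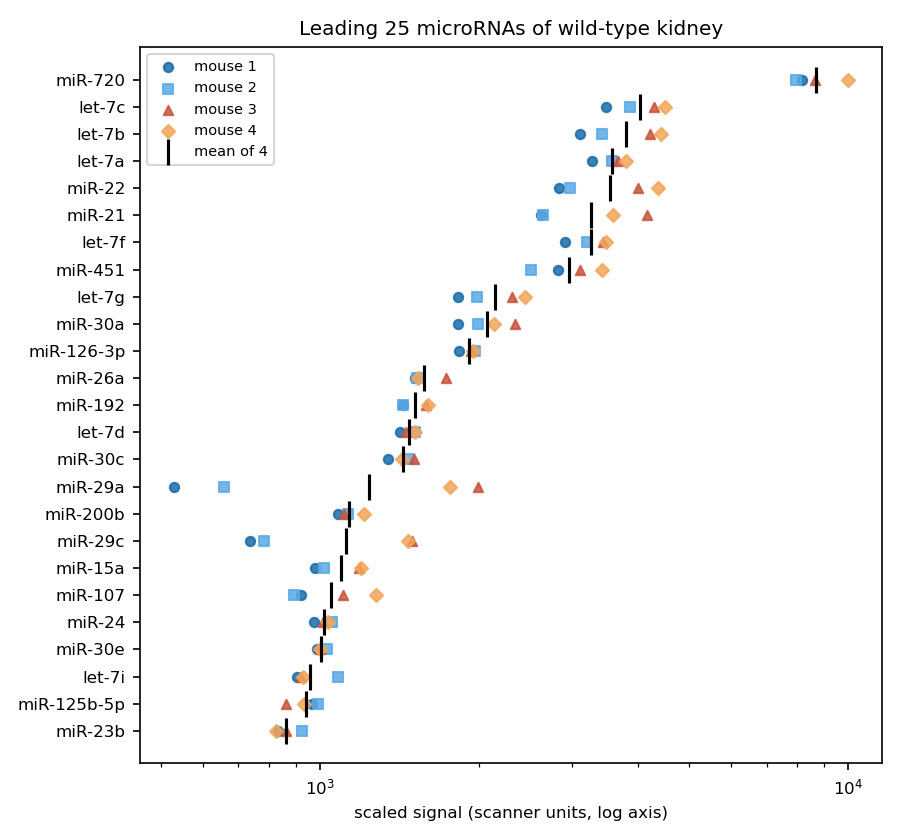
Each row is 1 of the leading 25 microRNAs by mean level, the horizontal axis is the scaled signal in scanner units on a log axis, the 4 symbols are the 4 mice and the bar is their mean. miR-720 stands clear at 7961 to 9994 units, and miR-29a and miR-29c are the rows in which mice 1 and 2 lie far below mice 3 and 4.

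Grouped by seed, the let-7 family held 25.5% ± 0.51 (SD, n = 4) of the signal, with 24.8%, 26.0%, 25.3% and 25.7% in mice 1 to 4. All 9 of its members on the array were detected in every kidney, including let-7e (414 ± 17.5 units) and miR-98 (123 ± 4.21 units). The miR-30 seed came next among the matched names. Its members miR-30a, miR-30c and miR-30e together held 5.83% ± 0.28, and miR-384-5p, which has the same seed, was detected on no array. The total leaves out miR-30b and miR-30d, which were detected in all kidneys but had no matched sequence. miR-22 alone held 4.53% ± 0.60.

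Among the groups that followed were families that restrain matrix genes or the cell cycle. The miR-29 group, whose targets include collagens, held 3.95% ± 1.88 (SD, n = 4), the widest spread of the 10 leading seed groups. The group of miR-15a, miR-16, miR-15b and miR-322, which targets cyclins, held 3.49% ± 0.21, miR-26 held 2.75% ± 0.17, and miR-200b with miR-429 and miR-200c, which hold down the Zeb factors in epithelium, held 2.68% ± 0.15. miR-107 with miR-103 held 2.15% ± 0.13, miR-192 held 1.95% ± 0.060 and the miR-10 group 1.72% ± 0.24. The 10 leading seed groups together held 54.5%. These groups cover only the 137 of 179 microRNAs with a matched sequence, which carried 71.8% of the signal. The order and the totals therefore hold for matched names only. miR-21 (4.16%), miR-451 (3.81%) and miR-126-3p (2.48%) had no matched sequence and stand outside this order. miR-195 (368 units) and miR-497 (341 units) were detected in all kidneys but, without a match, are not counted in the miR-15a group.

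Whole families were often present or absent together, but not always. Of 43 seeds shared by at least 2 matched members, 17 had every member detected in all kidneys and 8 had none. The other 18 were mixed. In several of these a single member carried the signal: miR-192 at 1513 ± 91.8 units against miR-215 at -0.71 ± 0.11, miR-204 at 54.5 ± 20.9 against miR-211 at 4.20 ± 3.08, and miR-146a at 45.0 ± 0.39 against miR-146b at 3.59 ± 0.33. miR-215, miR-211 and miR-146b were detected on no array.

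MicroRNAs known from cell types were grouped into lists. The lists were chosen with earlier results of these data known, so their counts are a description and not a check of the tissue. Endothelial, erythroid and stromal lists were detected in full, so a high share is not particular to tubule. Of 14 microRNAs known from kidney tubule, 12 (85.7%) were detected in all kidneys, against 29.3% of all mouse microRNAs, and they held 11.6% ± 0.71 (SD, n = 4) of the signal. Below miR-30 and miR-192 came miR-10a (803 ± 75.5 units), miR-10b (524 ± 41.2), miR-194 (518 ± 20.4), miR-30b (471 ± 20.9) and miR-30d (258 ± 10.4). miR-196b (168 ± 13.5) and miR-196a (168 ± 14.7), which lie in the Hox clusters as the miR-10 pair does, had nearly the same level. In mice 1 to 4, 1 probe of miR-196a read 227, 254, 211 and 229 units and 1 of miR-196b 233, 257, 211 and 230. Whether these probes also bind each other's strand was not tested. The 2 not detected were miR-211 and miR-215.

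All 5 members of the miR-200 family, the epithelial set, were detected. miR-200b, miR-429 and miR-200a, which come from a single precursor, were at 1132 ± 56.3, 819 ± 63.1 and 752 ± 38.6 units (SD, n = 4). miR-141 and miR-200c, which lie in another cluster, were lower at 143 ± 18.0 and 123 ± 12.6 units. The lowest value of the first 3 strands, 699 units, was above the highest of the last 2, 159 units.

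MicroRNAs known from vessels, blood and stroma were detected in these whole kidneys. Of all mouse microRNAs, 29.3% were detected in all kidneys. All 4 endothelial microRNAs were detected, with miR-221 at 154 ± 8.80, miR-126-5p at 36.4 ± 2.14 and miR-222 at 25.2 ± 1.52 units (SD, n = 4) beside miR-126-3p. All 3 erythroid microRNAs were detected and held 3.98% ± 0.32 of the signal, nearly all of it from miR-451, since miR-144 was at 85.8 ± 11.9 and miR-486 at 44.2 ± 6.45 units. Of 8 leukocyte microRNAs, 5 were detected in all kidneys (62.5%), led by miR-142-3p at 109 ± 16.9 and miR-223 at 68.5 ± 10.1 units, and they held 0.40% ± 0.0089. In bulk tissue, the number of cells of a type and the amount of RNA per cell cannot be told apart, and blood left in the organ was not measured separately.

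The stromal list, which includes miR-21, was detected in full, 5 of 5, against 29.3% of all mouse microRNAs. Beside miR-21 it held miR-199a-3p at 235 ± 24.4 units (SD, n = 4), miR-199b* at 116 ± 25.4, miR-199a-5p at 58.8 ± 2.91 and miR-214 at 29.9 ± 2.24. The smooth muscle pair was detected, miR-143 at 184 ± 13.5 and miR-145 at 26.2 ± 1.20 units. Of the 7 microRNAs of skeletal and heart muscle none was detected in all kidneys. miR-133b and miR-1 were each called on 1 array, at means of 5.89 and 4.33 units, and miR-206, miR-208a, miR-208b, miR-499 and miR-133a on none.

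Lists of other tissues were largely at background, while 29.3% of all mouse microRNAs were detected in all kidneys. The liver strand miR-122 was at 0.31 ± 0.73 units (SD, n = 4), and the 4 pancreas and islet strands reached no more than 2.01 units, the mean of miR-375. Of 16 strands of embryonic stem cells, 1 (6.25%) was detected in all kidneys, miR-291b-5p at 13.1 ± 1.60 units, and 14 on no array. Of 52 strands of the imprinted Dlk1-Dio3 region, a large microRNA locus active in embryo, placenta and brain, 1 (1.92%) was detected in all kidneys: miR-494 at 69.6, 74.1, 85.8 and 101 units in mice 1 to 4. Another, miR-376c, was called in mouse 1 alone, at 34.0 units, where the other 3 mice were below 0.

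Some lists of other cell types were in part detected, at low level. Of 15 neuronal microRNAs, 5 (33.3%) were detected in all kidneys, close to the 29.3% of all mouse microRNAs. They were miR-218 (74.3 ± 4.03 units, SD, n = 4), miR-212, miR-128, miR-7a and miR-219, while miR-124, miR-9, miR-137 and miR-153 were detected on no array. Of 3 strands of urothelium and stratified epithelium, miR-203 was at 51.9 ± 3.52 units in all kidneys. miR-31 and miR-205 were called in mouse 3 alone, at means over the 4 mice of 7.64 and 7.11 units. Of the sensory cluster, miR-96 was detected in all kidneys and miR-183 in 3.

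Some growth-related groups were detected in full and others in part, against 29.3% of all mouse microRNAs, at levels that differed between groups. The miR-23, miR-24 and miR-27 clusters were detected 5 of 5 and held 4.91% ± 0.45 (SD, n = 4) of the signal. The list of miR-15, miR-16 and miR-107 was 8 of 8 with 6.56% ± 0.19, the list of miR-99, miR-100 and miR-125 was 5 of 5 with 1.98% ± 0.27, and the miR-181 family was 4 of 4 with 0.23% ± 0.067 and a median of only 39.5 units. Of 12 members of the miR-17-92 cluster and its paralogs, which promote proliferation, 9 (75%) were detected, led by miR-19b at 478 ± 52.4 units and miR-20a at 258 ± 22.9. Within the same cluster miR-17 was at 4.40 ± 0.80 units and detected on no array. Of the hypoxia and p53 list, 4 of 5 were detected, with miR-34a at 166 ± 66.2 and miR-210 at 27.1 ± 5.90 units.

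**Figure D3:**
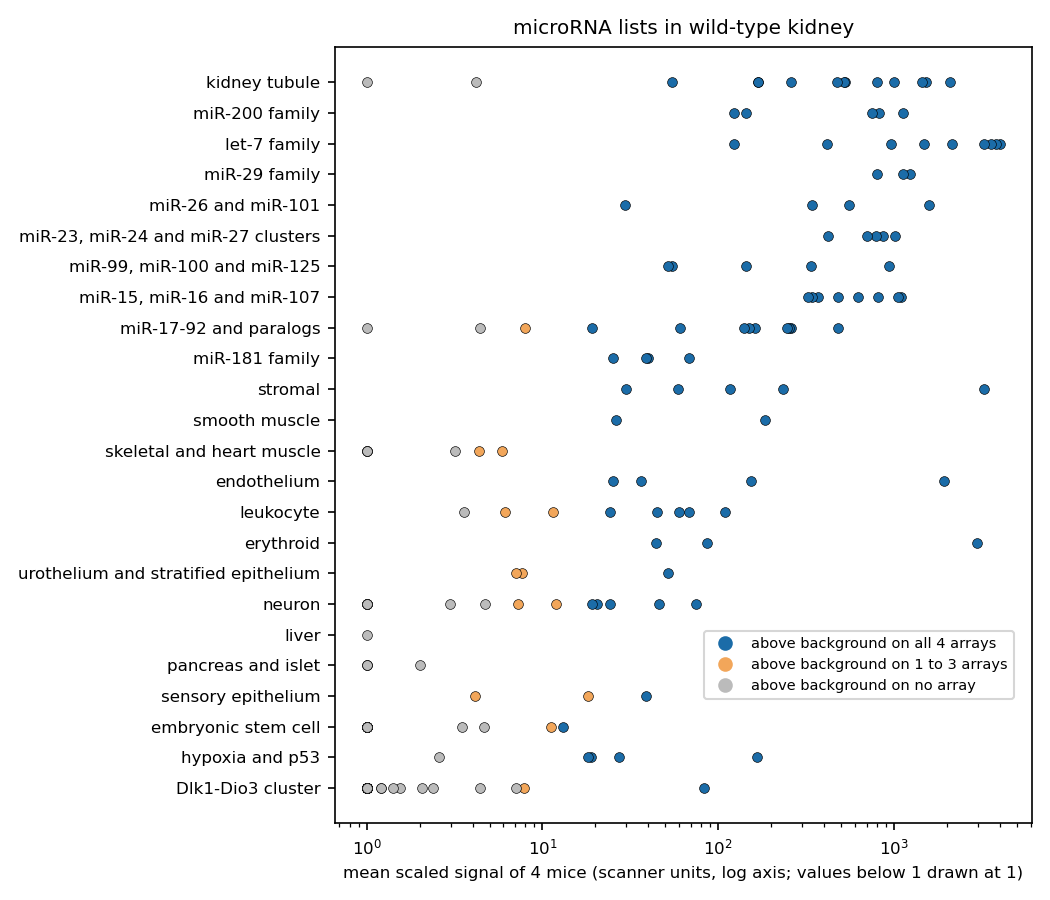
Each row is 1 list of microRNAs, each point is 1 member at its mean scaled signal over 4 mice in scanner units on a log axis, with values below 1 drawn at 1, and the colour shows on how many arrays it was above background. Kidney tubule, miR-200 and let-7 members lie mostly above 100 units, and the liver, pancreas and Dlk1-Dio3 rows lie near background except miR-494 at 82.7 units.

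MicroRNAs whose genes lie within 10 kb of each other on the same strand of the RefSeq assembly are often cut from a common transcript. Only names with a matched sequence were placed, which leaves out miR-143, miR-145, miR-451 and miR-23b among others. Of 44 clusters with at least 2 hairpins placed, 8 had every placed arm detected in all kidneys and 8 had none on any array. Those fully detected included the miR-200a, miR-200b and miR-429 cluster, miR-192 with miR-194, miR-221 with miR-222, and miR-29b with miR-29c. Those wholly undetected included the miR-302 and miR-367 cluster of pluripotent cells, the miR-465 and the miR-743 and miR-883 groups, miR-216a with miR-217, and parts of the Dlk1-Dio3 region. miR-194 also lies beside miR-215 at a second locus, where miR-215 was undetected.

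The array measures both arms of many hairpins. Among 177 pairs of arms, 19 had both arms detected in all kidneys and 67 had neither detected on any array. In 59 pairs the arm without a star, or the brighter of 2 arms without one, was detected in all kidneys and its partner on none, and in 4 pairs the reverse was found. The other 28 pairs had an arm that was detected in only some kidneys. Of 115 entries named with a star, 18 (15.7%) were detected in all kidneys, against 161 of 496 others (32.5%). The 115 star entries together held 1.04% ± 0.082 (SD, n = 4) of the signal.

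The ratio between the arms ranged widely and was steady from mouse to mouse. let-7b was 255-fold above let-7b*, let-7f 248-fold above let-7f*, and miR-22 135-fold above miR-22*. At the other end miR-140 at 169 ± 10.6 units (SD, n = 4) was 1.25-fold above miR-140* at 135 ± 7.25 units, and miR-340-5p was 1.39-fold above miR-340-3p. Where the partner was not detected, only a bound can be given from the dimmest detected probe of each array: let-7c was at least 366-fold above let-7c-1*, and let-7a at least 326-fold above let-7a*. Of the 19 pairs with both arms detected, each kept the same arm higher in 4 of 4 mice. The SD of the log2 ratio over mice was 0.028 for miR-30a over miR-30a* (15.7-fold) and 0.041 for miR-30e over miR-30e*, and it reached 0.40 for let-7b. These are ratios of probe signal, and the probes of the 2 arms differ in affinity.

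In 4 hairpins the star strand was detected in all kidneys and the other strand on none. miR-17* was at 23.6 units and miR-17 at 4.40, and miR-191* at 12.1 and miR-191 at -1.54. miR-674* was at 16.4 units and miR-674 at -0.59, and miR-877* at 24.5 and miR-877 at 1.64. Every probe of miR-877* was higher in mice 1 and 2 than in mice 3 and 4. For example, 1 probe read 42.2, 36.4, 12.5 and 15.7 units in mice 1 to 4. miR-17 and miR-191 are usually the loaded strands of their hairpins, and whether their probes can bind was not tested.

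With the arrays scaled on their detected probes, most microRNAs varied little between mice. Among the 104 with a mean of at least 50 units, the median SD of the log2 level over mice was 0.13, and 79 had an SD under 0.2. The steadiest were miR-30e at 984, 1028, 1001 and 998 units, miR-331-3p with an SD of 0.035, miR-148b with 0.042, miR-126-3p with 0.045 and let-7d with 0.048. The values depend on the scaling, since the median SD was 0.26 with no scaling and 0.43 with scaling by all probes, detected or not. On each array 19.6% to 22.1% of probes were detected, so the 75th percentile of all probes lies near background.

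The highest and the lowest mouse differed by more than 2-fold for 6 of the 104, and 3 of these were the miR-29 family. miR-29b was at 335, 344, 1349 and 1167 units in mice 1 to 4, a 4.03-fold range. miR-29a was at 528, 656, 1992 and 1761 units, a 3.77-fold range, and miR-29c at 735, 784, 1492 and 1465 units, a 2.03-fold range. For all 3 strands mice 1 and 2 were low and mice 3 and 4 high, with no overlap.

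Both probes of each miR-29 strand showed the same pattern. The dimmer probe of miR-29b read 55.5, 55.5, 225 and 202 units and the brighter one 614, 632, 2472 and 2132. miR-29c*, the other arm of the miR-29c hairpin, also followed, at 17.0, 18.6, 30.2 and 31.3 units, so the ratio of miR-29c to miR-29c* stayed near 45.3-fold (SD of log2, 0.11). The family's share of the signal was 2.28%, 2.42%, 5.88% and 5.24% in mice 1 to 4.

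The other 3 were miR-574-5p, miR-34a and miR-204. miR-574-5p was at 82.5, 68.1, 27.8 and 25.5 units, with mice 1 and 2 high. miR-34a, a strand induced by p53, was at 90.9, 153, 252 and 170 units, lowest in mouse 1 and highest in mouse 3, and its SD of 0.61 fell to 0.37 without mouse 1. miR-204, which has a role in tubular epithelium, was at 65.4, 78.8, 37.3 and 36.8 units. With scaling by all probes the SD of miR-204 fell from 0.56 to 0.24 and that of miR-574-5p from 0.87 to 0.48. That of miR-29c was 0.96 in place of 0.56. Scaling by all probes divides by a value near background and gave a higher median SD than the main scaling.

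**Figure D4:**
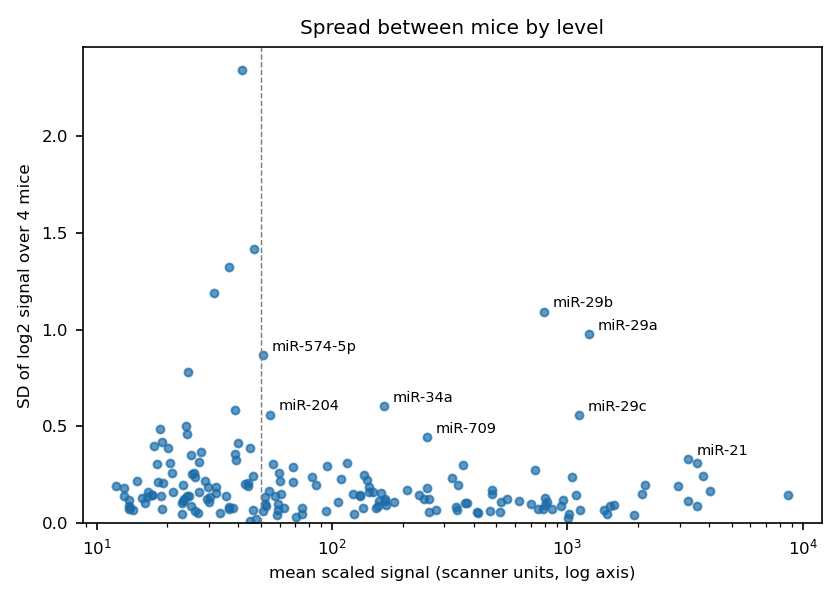
Each point is 1 of the 179 microRNAs detected in every kidney, with its mean scaled signal in scanner units on a log axis and the SD of its log2 signal over the 4 mice, and the dashed line marks 50 units. To the right of the line miR-29b, miR-29a and miR-574-5p lie highest at 1.09, 0.98 and 0.87, while the median is 0.13.

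Some microRNAs were detected in mice 1 and 2 and near background in mice 3 and 4. Of the 52 microRNAs detected in only some kidneys, 19 were detected in mice 1 and 2 alone, 14 in mouse 3 alone, 6 in mice 3 and 4 alone and 5 in mouse 1 alone. The 14 of mouse 3 alone were near or under the limit of detection, with means over the 4 mice of 0.71 to 8.79 units. For example, miR-150 read 5.25, 6.08, 6.90 and 6.26 units in mice 1 to 4. These levels average all probes of a microRNA, since none was called on at least 2 arrays. After scaling, the dimmest detected probe was at 8.43 units in mouse 3 and at up to 12.2 units in the other mice. Its part in these calls was not tested. 5 families, miR-297, miR-466, miR-467, miR-574 and miR-669, have 41 members on the array. They were picked out after the partly detected names were seen, so their counts are a description. Of the 41, 18 (43.9%) were detected in at least 1 kidney, against 37.8% of all mouse microRNAs. Detected members numbered 18, 16, 4 and 4 in mice 1 to 4, against 206, 204, 206 and 190 of all mouse microRNAs. The median level over all 41 was 7.40, 5.47, 0.35 and 0.21 units. The 5 families make up 12 of the 19 names detected in mice 1 and 2 alone, against 41 of the 611 names on the array. The other 7 were miR-207, miR-468, miR-1196, miR-672, miR-130b, miR-1894-5p and miR-485*.

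Single members showed the same split. miR-466g was at 83.0, 74.4, 0.77 and 1.58 units, and miR-467a* at 57.7, 49.4, 1.75 and 1.69. miR-669n was at 62.4, 49.1, 7.15 and 7.25 units, and miR-574-3p at 87.9, 76.1, 2.64 and 3.69. The array's bright-corner control spots, which hold no mouse microRNA probe, moved the same way, at scaled signals of 330, 324, 117 and 197 units. Their part in this result was not tested.

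**Figure D5:**
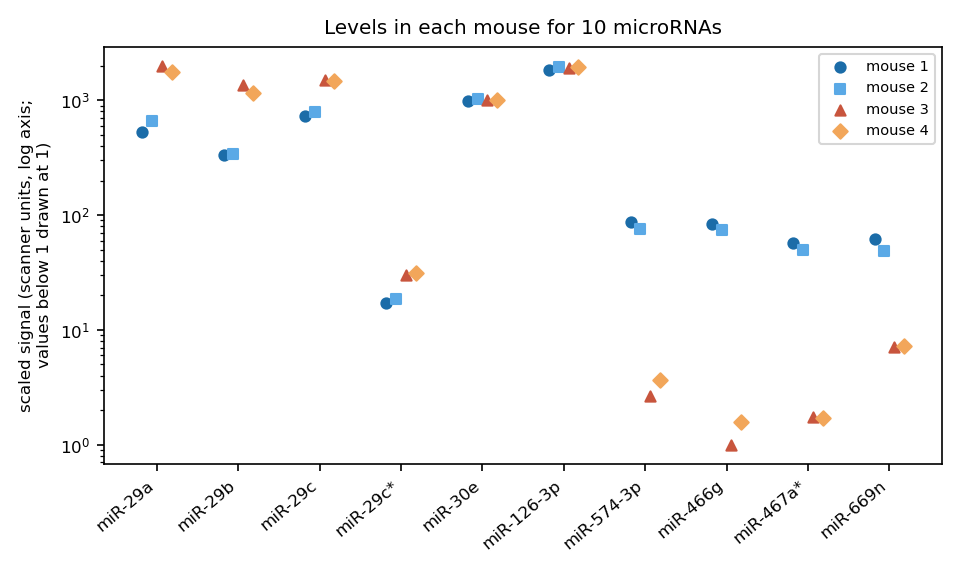
The vertical axis is the scaled signal in scanner units on a log axis, with values below 1 drawn at 1, and the symbols are the 4 mice, for 10 microRNAs picked to show the patterns described. miR-29a, miR-29b, miR-29c and miR-29c* are lower in mice 1 and 2, miR-574-3p, miR-466g, miR-467a* and miR-669n are higher in them, and miR-30e and miR-126-3p differ by at most 1.07-fold.

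Base composition was compared between detection classes as a description. Among names with a matched sequence, the median GC content was 45.5% for the 137 detected in all kidneys, 52.3% for the 28 detected in some and 47.8% for the 250 detected in none, and the median length was 22 bases in each class. Of the leading 25, 20 had a sequence, with a median GC content of 40.9%. U was the first base in 56.2% of those detected in all kidneys, in 33.2% of those detected in none and in 80.0% of the 20 leading strands, of which 7 are let-7 members with nearly the same sequence.

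The dimmest strands that were still detected in all kidneys marked the lower end of what the arrays could read. They were miR-191* at 12.1 ± 1.74 units (SD, n = 4), miR-291b-5p at 13.1 ± 1.60, let-7f* at 13.1 ± 1.32, miR-340-3p at 13.7 ± 1.14 and miR-324-3p at 13.8 ± 0.70. On single arrays the dimmest detected probe was at 9.60 to 13.0 units before scaling, and the median of the negative control spots at -0.14 to 0.86 units. Of a strand under that range it can be said only that it was not well above background.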

How the data were processed

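Whole-kidney total RNA of 4 wild-type mice, which the labels number as separate animals, was read on 4 single-colour Agilent mouse microRNA arrays. The submitters' processing notes name Agilent Feature Extraction 10.7.3.1 as the software the authors ran. The deposited intensity of each spot is background-subtracted and not scaled between arrays, per the file headers. Spots flagged as non-uniform, population or manual outliers were left out, spots of a probe were averaged, and a microRNA's level is the mean over its probes detected on at least 2 of the 4 arrays (all probes if none). Each array was scaled by its 75th percentile over the probes that all 4 arrays detected, which was 307 to 441 units before scaling. Shares are of the summed level of the 179 microRNAs detected in all kidneys.

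Older array names were matched to RefSeq strands through a hand-written table of guide arms. The microRNAs named are the leading 25 by mean level, the 10 most and 5 least variable of at least 50 units, up to 5 per list by level, the 5 highest and 5 lowest arm ratios, the 5 dimmest detected and the 10 leading seed groups; other names were added once values had been seen. The members and lists were chosen with earlier results of these data known. With 1 group there is no test between groups. Single mice were screened for outlying values with Dixon's ratio, and 4 arrays limit the precision.

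Python 3.11.15 with numpy 2.4.6, pandas 2.3.3 and matplotlib 3.10.9 was used, and limma 3.58.1 in R 4.3.3 for one alternative background correction. The computation was tested on simulated data, where 25 of the leading 25 and 32 of the 34 most variable microRNAs were recovered. The simulation used the observed mean levels, equal levels for all probes of a microRNA and a much larger spread for the variable ones. It did not copy the differences between probes or the split of the mice, so it checks the arithmetic only. Alternatives covered the probe summary, background, scaling, detection rule, spot flags, denominator, the authors' deposited value table and leaving out mice. In that table names and values stopped matching partway, so only the 532 of its 650 names before the first mismatch were kept. The 160 of these that were detected in all kidneys were used, and their shares were rescaled to the main total of the same names. The mismatch was judged against the array signal, so names were kept in part because they matched it.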

Additional observations from a re-analysis of the deposited data

Results flagged for a closer look

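Of 108 values tested over the 4 mice, 6 had 1 mouse far from the other 3, where chance alone gives about 1 in 20. Mouse 4 had 190 detected microRNAs against 204 to 206 in the others. On the log2 scale, miR-26a was highest in mouse 3 at 10.76 (others 10.56 to 10.58), let-7i in mouse 2 at 10.08 (others 9.82 to 9.86) and miR-10a in mouse 2 at 9.84 (others 9.56 to 9.61). miR-532-5p was lowest in mouse 1 at 5.12 (others 5.28 to 5.30), and miR-455* was highest in mouse 4 at 4.68 (others 4.46 to 4.49).

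The arrays also hold 39 names that are not mouse microRNAs. Of these, 3 with names of mouse herpesvirus microRNAs were well above background on all 4 arrays: mcmv-miR-M23-1-5p at 145 ± 27.9 units (SD, n = 4; brightest probe, 112 to 172), mcmv-miR-m88-1 at 49.1 ± 7.90 and mghv-miR-M1-2 at 22.3 ± 3.84. What bound these probes was not tested.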

How the results depend on the processing

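The count of microRNAs detected in all kidneys, 179, was 162 when all spots had to be above background, 202 by the software's own call, and between these under the other detection rules. It was 179 to 182 when each mouse was left out in turn, 199 without mice 3 and 4 and 190 without mice 1 and 2. Leaving out these pairs of mice was added after seeing the data, as was leaving out miR-720. Fewer arrays can only keep or raise this count, since every remaining array must detect the microRNA. With the brightest probe per microRNA the leading 10 held 50.3% and miR-720 12.4%. With normexp background correction (offset 50) the leading 10 held 42.0%, the leading 25 63.6%, let-7 22.4% and miR-720 9.79%; the offset raises dim probes by construction. With spot medians minus local background let-7 held 24.7%. Without miR-720 the leading 10 held 44.2%, the leading 25 69.2% and let-7 28.7%. The leading 10 held 46.0% without mice 3 and 4, and the leading 25 held 73.6% without mice 1 and 2. The median SD of log2 level was 0.43 with scaling by all probes and 0.26 with no scaling, and the SD of miR-204 was 0.24 with scaling by all probes. Leaving out each mouse gave 47.2% to 48.6% for the leading 10, 70.9% to 72.3% for the leading 25, 25.3% to 25.6% for let-7, 11.0% to 11.4% for miR-720, 11.0 to 11.7 microRNAs for 50% of the signal and 0.12 to 0.13 for the median SD. Of the shares of the leading 25, 16 of 25 moved by more than 1 SD with the brightest probe, 16 of 25 with normexp and 5 of 24 with the deposited value table, whose scaling is unknown. No paired analysis was possible because all values come from 1 group and from no test. Strands of about 10 units or less cannot be told from background on these arrays.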
